A study of Mus musculus with 11 samples.

Results

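The genes described here are 10 imprinted genes with roles in growth, *H19*, *Igf2*, *Meg3*, *Dlk1*, *Peg3*, *Cdkn1c*, *Grb10*, *Mest*, *Plagl1* and *Igf2r*, chosen by name among the 26283 genes of the deposited tables. All 10 were found, and 9 passed a filter on low counts, the exception being *Dlk1*. They were measured by bulk RNA sequencing in 11 mammary tumors of 18-week-old C57BL/6 mice, 6 PyMT *Pcbp1*–/–, called knockout below, and 5 PyMT *Pcbp1*+/+, called wild-type. Both groups carried the MMTV-PyMT oncogene, the polyomavirus middle T antigen, and an MMTV-Cre transgene. The knockout mice had *Pcbp1*(fl/fl) alleles and the wild-type mice *Pcbp1*(wt/wt) alleles, so that Cre removes *Pcbp1*, which encodes an RNA- and DNA-binding protein, from mammary epithelium and leaves it in the other cells of the tumor. The comparison asks whether the RNA of these growth genes differs between tumors with and without *Pcbp1*. The labels do not say that each tumor came from a separate animal, so that p-values measure the spread between these tumors.

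An imprinted gene is transcribed mainly from the copy inherited from the mother or mainly from the copy inherited from the father, according to DNA methylation laid down in the germ line. Many paternally expressed genes of this kind promote growth of the embryo and placenta, and many maternally expressed genes restrain it. Several are silenced in most organs after birth and can be transcribed again in regenerating tissue and in tumors. The values here are totals over both parental copies, and the copies were not analysed separately.

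Estimated counts per tumor summed to between 10543189 and 14092192. Totals were larger in knockout tumors (p = 0.0173, exact permutation test, two-sided). Levels are therefore given as deposited CPM, counts per 1000000 counts. A count of 0 allows up to 3 counts, which corresponded to between 0.213 and 0.285 CPM, and these limits cover counting error only. *Pcbp1* itself averaged 23.0 ± 6.70 CPM (SD, n = 6) in the knockout group and 249 ± 24.4 CPM (SD, n = 5) in the wild-type group, without overlap. The labelled tissue was checked with 9 luminal epithelial markers, which all passed the filter and together had between 1296 CPM and 2489 CPM in a tumor. The most abundant of them was *Cdh1*, with a mean of 321 CPM, and 0 of the 9 differed between the genotypes at an adjusted or an unadjusted p under 0.05 (edgeR).

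Wild-type replicate 2 stood apart from the other tumors. Its median correlation with the other 10 tumors over log2(CPM + 1) was 0.944, and that of the other tumors lay between 0.961 and 0.971. It had 277 CPM of the basal keratin *Krt14* against at most 47.6 CPM in any other tumor. The other basal markers of the list used below did not all follow. *Krt17* was also highest in this tumor (46.9 CPM). In contrast, *Acta2* (13.4 CPM), *Myh11* (5.50 CPM), *Oxtr* (17.45 CPM) and *Cnn1* (5.69 CPM) were lowest in it, and *Krt5* and *Trp63* were at neither extreme. Some of the results below are also given without it.

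None of the 9 tested members differed between the genotypes at an adjusted p under 0.05 in edgeR's quasi-likelihood test with Benjamini-Hochberg adjustment over 19232 genes, of which 2.27% passed. At an unadjusted p under 0.05 the count was also 0 of 9 with edgeR, against 3601 of all genes tested. With DESeq2, 1 member reached an unadjusted p under 0.05 (*Grb10*), and with limma-voom and sample quality weights 2 members did (*H19* and *Mest*). Neither tool gave a member an adjusted p under 0.05. With edgeR, leaving out 1 tumor gave unadjusted p-values under 0.05 to *H19* and *Grb10* (without wild-type replicate 1), to *Meg3* and *Grb10* (without knockout replicate 5) and to *Meg3* (without wild-type replicate 3), and no adjusted p under 0.05. For 0 of the 10 members were the groups free of overlap in CPM, where 3.29% of all genes tested had no overlap. The fitted log2 fold change was above 0 for 8 members and below 0 for 1, with a median of 0.31 beside a median of -0.00012 over all genes tested. The direction of *Igf2*, *Peg3* and *Plagl1* turned in at least 1 other setting. The intervals below show how large a difference these tumors leave possible, since a p that misses the threshold does not show that levels were equal.

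**Figure D1:**
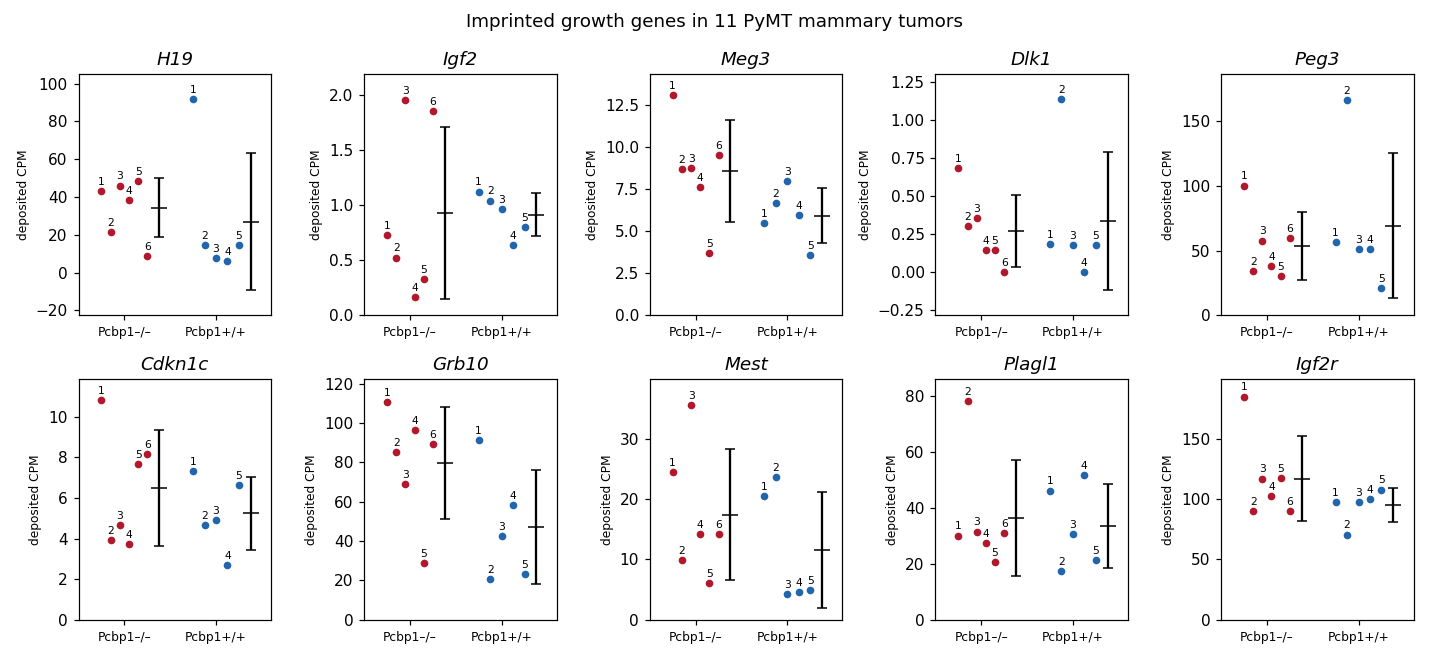
Deposited CPM of the 10 members in each tumor, with knockout tumors in red, wild-type tumors in blue, replicate numbers above the points, and black bars for the mean ± SD of each group. The groups overlap in every panel, and single tumors lie far from their group, such as wild-type replicate 1 for *H19* at 91.8 CPM.

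*H19* and *Igf2* are neighbours on chromosome 7. *H19* is a maternally expressed noncoding RNA, *Igf2* is a paternally expressed growth factor, and the pair shares enhancers that a methylated control region assigns to either gene. *H19* (ENSMUSG00000000031.16, chromosome 7 of GRCm38, 142575529 to 142578143, minus strand) had between 8.97 CPM and 48.3 CPM in knockout tumors, with a median of 40.6 CPM. Wild-type replicates 1 to 5 gave 91.8, 14.6, 7.89, 6.01 and 14.8 CPM. The highest value of all thus lay in a wild-type tumor, the other 4 of that group were low, and 5 of 6 knockout tumors exceeded the wild-type median. Its log2 fold change was 0.40 (95% interval -0.99 to 1.80, adjusted p = 0.774 from edgeR). Without wild-type replicate 1 it was 1.63 (adjusted p = 0.104 from edgeR), and over all fits that leave out a tumor the adjusted p ranged from 0.104 to 0.939 (edgeR).

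The tumor highest in *H19*, wild-type replicate 1, also had the highest sum of the 8 basal epithelial markers, 916 CPM against at most 443 CPM in the other tumors. The tumor with that next highest sum, knockout replicate 6, had the lowest *H19* of its group, 8.97 CPM. The most abundant basal marker over all tumors was *Oxtr*, with a mean of 105 CPM, and none of the 8 was at 0 in any tumor. Of these 8 markers, 0 passed an adjusted p under 0.05 between the genotypes (edgeR; 1 had an unadjusted p under 0.05, the *Krt14* that was high in wild-type replicate 2). In bulk tumors, fewer cells of a type and less RNA per cell cannot be told apart, and the part of basal cells in the *H19* values was not tested.

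*Igf2* (ENSMUSG00000048583.16, chromosome 7, 142650766 to 142666816, minus strand) was close to the counting floor. It had between 0.167 CPM and 1.96 CPM in knockout tumors, with a median of 0.627 CPM. The 5 wild-type tumors had, in replicate order, 1.13, 1.04, 0.964, 0.638 and 0.804 CPM. All knockout tumors except replicate 1 lay outside the wild-type range, on both sides of it, and its counts per tumor ran from 2.28 to 24. A log2 fold change of 0.017 was fitted (95% interval -1.15 to 1.19, adjusted p = 0.992 from edgeR), and its sign turned without wild-type replicate 4 (-0.097) or replicate 5 (-0.0039). Without knockout replicate 3 or replicate 6, the 2 tumors with the highest *Igf2*, it did not pass the filter and was not tested. A read-through gene annotated over *Igf2* on the same strand, RP23-209O22.2, had at most 0.638 CPM, and reads shared by both cannot be told apart.

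The ratio of *H19* to *Igf2* was taken on the scale of log2(CPM + 1) in each tumor. In the knockout group it was 4.11 ± 1.25 (SD, n = 6), and in the wild-type group 3.16 ± 1.36 (SD, n = 5). The difference of 0.95 was within the spread between tumors (p = 0.251 by exact permutation, two-sided, and 0.251 after Benjamini-Hochberg adjustment over the 2 ratios computed). Without wild-type replicate 1 it was 1.52 (exact permutation test, p = 0.0619), and with 0.1 CPM added in place of 1 CPM it was 1.27 (p = 0.221 by exact permutation). The low counts of *Igf2* enter this ratio. No relation between *H19* and *Igf2* was detected across the 11 tumors (Pearson r = -0.13, permutation p = 0.698, adjusted p = 0.745; Spearman rho = -0.0273, permutation p = 0.946, adjusted p = 0.946, both over the 11 pairs of domain neighbours described below), with r = -0.382 after leaving out the 2 tumors farthest from the *H19* median.

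*Igf2r* and *Grb10* are maternally expressed restraints on IGF and insulin signaling. *Igf2r* encodes the cation-independent mannose 6-phosphate receptor, which carries IGF2 to lysosomes for degradation, and *Grb10* encodes an adaptor that binds and inhibits the insulin and IGF1 receptors. *Igf2r* (ENSMUSG00000023830.13, chromosome 17, 12682406 to 12769664, minus strand) had between 90.0 CPM and 185 CPM in knockout tumors, with a median of 109.9 CPM. Wild-type levels in replicates 1 to 5 were 97.7, 70.7, 97.8, 100.2 and 108 CPM. Knockout replicate 1 was high and wild-type replicate 2 low, and the remaining tumors of both groups shared a narrow range. The fitted log2 fold change was 0.30 (95% interval -0.11 to 0.70, adjusted p = 0.422 from edgeR), the narrowest interval among the tested members. Without knockout replicate 1 it was 0.13 (adjusted p = 0.663 from edgeR). *Airn*, an antisense RNA of the domain, overlaps *Igf2r* over 28354 bases and had between 16.4 CPM and 38.6 CPM, and reads within that overlap could be told apart only by strand.

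*Grb10* (ENSMUSG00000020176.17, chromosome 11, 11930508 to 12038683, minus strand) had the largest log2 fold change of the 9 tested members in the edgeR fit. Its levels ran from 29.0 CPM to 111 CPM in knockout tumors, with a median of 87.2 CPM. In wild-type replicates 1 to 5 it had 91.4, 20.8, 42.4, 58.4 and 23.0 CPM. All knockout tumors except replicate 5 were above 4 of the 5 wild-type tumors, and wild-type replicate 1 lay among them. This log2 fold change was 0.78 (95% interval -0.043 to 1.61, adjusted p = 0.292 from edgeR). Leaving out any 1 tumor gave values between 0.60 and 1.12, with an adjusted p between 0.162 and 0.419 from edgeR.

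The other genes of the IGF axis were taken from a list of 19, of which 15 passed the filter. Of these, 0 passed an adjusted p under 0.05 (edgeR; 2 had an unadjusted p under 0.05), 8 had a log2 fold change below 0 and 7 above, and their median was -0.034. By CPM, which does not correct for length, the most abundant was *Igfbp5*, a secreted IGF-binding protein of the involuting mammary gland, with a mean of 12173 CPM and -0.84 as its log2 fold change (adjusted p = 0.123 from edgeR). Among 11 genes of mannose 6-phosphate sorting, which *Igf2r* shares with *M6pr*, 0 passed either an adjusted or an unadjusted p under 0.05 (edgeR), with a median log2 fold change of -0.0032. The most abundant of these, the lysosomal protease *Ctsd*, had a mean of 334 CPM.

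*Dlk1* and *Meg3* lie in an imprinted domain on chromosome 12. *Dlk1* is paternally expressed and encodes a membrane protein of the Notch ligand family that keeps progenitor cells undifferentiated, and *Meg3* is a maternally expressed noncoding RNA. *Dlk1* (ENSMUSG00000040856.17, 109452823 to 109463336, plus strand) had at most 0.683 CPM in knockout tumors, with a median of 0.223 CPM and a lowest value of 0. Wild-type replicates 1 to 5 gave 0.183, 1.14, 0.175, 0 and 0.179 CPM. These values came from between 0 and 12 counts per tumor, and 7 of the 11 tumors were at or under 3 counts.

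*Meg3* (ENSMUSG00000021268.17, chromosome 12, 109541001 to 109571726, plus strand) had between 3.67 CPM and 13.1 CPM in knockout tumors, with a median of 8.72 CPM. The 5 wild-type tumors had, in replicate order, 5.48, 6.64, 7.97, 5.92 and 3.57 CPM. Of the knockout tumors, 4 were above every wild-type tumor, and replicate 5 was nearly as low as the lowest of them. Its log2 fold change was 0.52 (95% interval -0.086 to 1.12, adjusted p = 0.339 from edgeR).

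The log2 ratio of *Meg3* to *Dlk1* was 2.86 ± 0.45 (SD, n = 6) for knockout and 2.39 ± 0.49 (SD, n = 5) for wild-type tumors. The difference of 0.46 did not exceed the spread either (p = 0.132 by exact permutation, adjusted p = 0.251). With 0.1 CPM added to both genes in place of 1 CPM, the difference was 0.47 (p = 0.502 by exact permutation). The counts of *Dlk1* in this ratio are those near the floor given above. Since *Dlk1* was mostly far under the 1 CPM added, the ratio largely follows *Meg3* and does not measure how the levels of both RNAs relate.

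*Meg3* was compared with noncoding RNAs of the same domain, as part of 11 pairs of domain neighbours chosen after the data were seen. *Rian*, the maternally expressed RNA that follows *Meg3* on the chromosome, varied with it across the 11 tumors (Pearson r = 0.903, permutation p = 8.00e-05, adjusted p = 0.000880; Spearman rho = 0.955, permutation p = 5.00e-05, adjusted p = 0.000550). After leaving out knockout replicate 5 and wild-type replicate 5, the tumors farthest from the *Meg3* median, r was 0.974. With the genotype means subtracted it was 0.913. Between the genotypes *Rian* differed by 0.70 on the log2 scale (adjusted p = 0.135 from edgeR), beside 0.52 for *Meg3*. *Mirg*, farther along the domain, had r = 0.671 with *Meg3* (permutation p = 0.0240, adjusted p = 0.0880; Spearman rho = 0.355, permutation p = 0.288, adjusted p = 0.527). Without the same tumors, which were the lowest in *Meg3*, r was 0.0779 (permutation p = 0.843, n = 9). Without knockout replicate 5 alone it was 0.501 (permutation p = 0.145, n = 10). The permutation p reached 0.0785 with another single tumor left out, so that the values do not show which tumors the relation of *Meg3* and *Mirg* rested on. Of the 11 pairs, 2 had an adjusted p under 0.05 by Pearson and 1 by Spearman, and *Meg3* with *Rian* was the pair in both. *Mest* and *Copg2*, which overlap, had r = 0.606 (permutation p = 0.0478, adjusted p = 0.131) and Spearman rho = 0.591 (permutation p = 0.0607, adjusted p = 0.223). Without the 2 tumors farthest from the *Mest* median, wild-type replicates 3 and 4, r was 0.369 (permutation p = 0.329, n = 9). These tumors were the lowest in *Mest*, so that the range was narrower. Without wild-type replicate 3 alone r was 0.480 (permutation p = 0.161, n = 10). The permutation p reached 0.107 with another single tumor left out, so that the values do not show which tumors this relation rested on. *Igf2r* and its overlapping antisense RNA *Airn* had r = 0.237 (permutation p = 0.475, adjusted p = 0.580) and Spearman rho = 0.655 (permutation p = 0.0342, adjusted p = 0.188), with r = 0.745 without the 2 tumors farthest from the *Igf2r* median (permutation p = 0.0203, n = 9).

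*Cdkn1c* encodes p57, an inhibitor of cyclin-dependent kinases, and is maternally expressed in a domain controlled by the noncoding RNA *Kcnq1ot1*. *Cdkn1c* (ENSMUSG00000037664.13, chromosome 7, 143458339 to 143461050, minus strand) had between 3.75 CPM and 10.8 CPM in knockout tumors, with a median of 6.17 CPM. Wild-type levels in replicates 1 to 5 were 7.31, 4.67, 4.90, 2.72 and 6.64 CPM. Of the knockout tumors, 3 were above the highest wild-type tumor, and the lowest value of all was in wild-type replicate 4. The fitted log2 fold change was 0.31 (95% interval -0.40 to 1.01, adjusted p = 0.651 from edgeR). It was 0.11 without knockout replicate 1 and 0.14 without wild-type replicate 4. An antisense gene overlaps *Cdkn1c* over 892 bases and had at most 1.81 CPM, and whether the counting used strand is not given in the sources used here.

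*Kcnq1ot1* had the highest mean CPM of the other paternally expressed imprinted genes, 699 CPM, where CPM does not correct for length. No relation to *Cdkn1c* was detected across tumors (Pearson r = -0.374, permutation p = 0.260, adjusted p = 0.572; Spearman rho = -0.491, permutation p = 0.130, adjusted p = 0.358), with r = -0.343 after leaving out the 2 tumors farthest from the *Cdkn1c* median. Among 6 tested paralogs of the members, 0 passed an adjusted p under 0.05 (edgeR; 1 had an unadjusted p under 0.05), with a median log2 fold change of -0.012. The most abundant paralog was *Cdkn1b*, which encodes the related inhibitor p27, with a mean of 128 CPM. The 4 INK4 inhibitors, which bind CDK4 and CDK6, had a median of 0.44, with 0 past an adjusted p under 0.05 and 1 past an unadjusted p under 0.05 (edgeR), and *Cdkn2c* was the most abundant with a mean of 24.9 CPM.

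*Peg3* is a paternally expressed zinc finger gene. *Peg3* (ENSMUSG00000002265.16, chromosome 7, 6703892 to 6730431, minus strand) had between 30.1 CPM and 100.1 CPM in knockout tumors, with a median of 48.0 CPM. In wild-type replicates 1 to 5 it had 56.5, 166, 50.8, 50.8 and 21.3 CPM. Wild-type replicate 2 was far above the rest, with knockout replicate 1 next. Its log2 fold change was -0.37 (95% interval -1.33 to 0.60, adjusted p = 0.699 from edgeR), and without wild-type replicate 2 it turned to 0.26 (adjusted p = 0.713 from edgeR).

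*Usp29* is transcribed away from *Peg3* from a shared start region. It was highest in the same tumors, with 3.41 CPM in wild-type replicate 2 and 1.11 CPM in knockout replicate 1, and at most 0.497 CPM in the others. Pearson r between *Peg3* and *Usp29* was 0.788 (permutation p = 0.00586, adjusted p = 0.0322), and Spearman rho was 0.382 (permutation p = 0.248, adjusted p = 0.527). Without wild-type replicates 2 and 5, the tumors farthest from the *Peg3* median, r was 0.517 (permutation p = 0.164, n = 9). Without wild-type replicate 2 alone it was 0.525 (permutation p = 0.127, n = 10), and leaving out any other single tumor gave a permutation p of at most 0.0475, so that the relation rested on wild-type replicate 2. *Usp29* did not pass the filter on low counts.

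The promoter of *Peg3* is shown because both genes start within it. The RefSeq window of *Peg3* (GRCm38.p6, chr7:6730370-6730669, minus strand, 300 bases) shares 263 bases with that of *Usp29*, which lies on the plus strand. RefSeq windows matched 8 of the 10 members. Capitals mark the dinucleotide CG, the base pair step that carries DNA methylation and that reads the same on both strands. The window holds 13 of them, against a median of 7 over 32851 windows of that table, of which 94.6% hold at least 1. A match is a description of the sequence, and methylation was not measured here.
*Peg3* promoter: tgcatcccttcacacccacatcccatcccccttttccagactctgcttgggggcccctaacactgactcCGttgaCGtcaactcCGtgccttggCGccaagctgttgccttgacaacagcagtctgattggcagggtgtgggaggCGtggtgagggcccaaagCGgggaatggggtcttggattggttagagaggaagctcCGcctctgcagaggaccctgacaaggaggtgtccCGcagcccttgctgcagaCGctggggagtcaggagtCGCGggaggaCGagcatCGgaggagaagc

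*Mest* and *Plagl1* are paternally expressed. *Mest* encodes an enzyme-like protein of the endoplasmic reticulum that is linked to growth of fat and embryonic tissue, and *Plagl1* encodes a zinc finger transcription factor that can arrest the cell cycle. *Mest* (ENSMUSG00000051855.15, chromosome 6, 30723547 to 30748465, plus strand) had between 6.05 CPM and 35.6 CPM in knockout tumors, with a median of 14.2 CPM. Wild-type replicates 1 to 5 gave 20.5, 23.7, 4.23, 4.54 and 5.00 CPM. The wild-type tumors fell into 2 high and 3 low ones, and the knockout tumors spread over the whole range above the low ones. Its log2 fold change was 0.61 (95% interval -0.57 to 1.79, adjusted p = 0.582 from edgeR). It was 1.05 without wild-type replicate 2 and 0.28 without knockout replicate 3, with an adjusted p between 0.307 and 0.837 over all such fits (edgeR). The tail of *Mest* overlaps *Copg2*, on the other strand, over 912 bases.

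*Plagl1* (ENSMUSG00000019817.18, chromosome 10, 13060504 to 13131694, plus strand) had between 20.6 CPM and 78.0 CPM in knockout tumors, with a median of 30.5 CPM. The 5 wild-type tumors had, in replicate order, 46.1, 17.5, 30.7, 51.7 and 21.4 CPM. Knockout replicate 2 stood above all others, and the other 5 tumors of its group lay inside the wild-type range. The fitted log2 fold change was 0.13 (95% interval -0.61 to 0.87, adjusted p = 0.871 from edgeR). It was -0.23 without knockout replicate 2 and -0.028 without wild-type replicate 2.

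**Figure D2:**
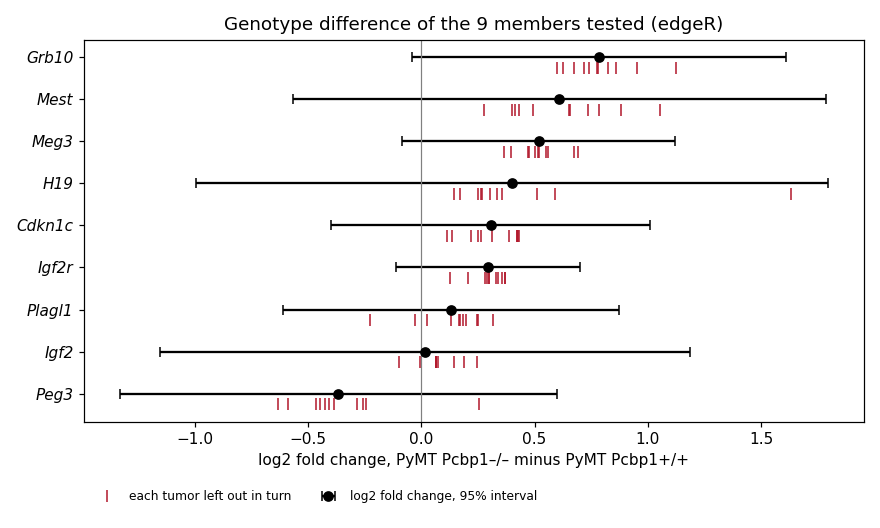
Log2 fold change of the 9 tested members from edgeR, knockout minus wild-type, with 95% intervals in black and, in red, the fits that leave out 1 tumor. Every interval includes 0, and the isolated red mark of *H19* at 1.63 is the fit without wild-type replicate 1.

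Levels of different members were compared per kb of the canonical GENCODE transcript, as the mean over all 11 tumors. *H19* had 14 ± 12 CPM per kb (SD, n = 11), followed by *Grb10* with 12.8 ± 6.32, *Igf2r* with 12 ± 3.24 and *Mest* with 11.7 ± 8.12 CPM per kb. *Peg3* had 6.92 ± 4.66, *Plagl1* 6.52 ± 3.26, *Meg3* 4.44 ± 1.66 and *Cdkn1c* 3.07 ± 1.25 CPM per kb. *Igf2* had 0.249 ± 0.153 and *Dlk1* 0.0669 ± 0.0748 CPM per kb. In single tumors this order often did not hold: *H19* was above *Grb10*, and *Peg3* above *Plagl1*, in only 5 of 11 tumors. Other neighbours down to *Cdkn1c* kept it in between 7 and 9 of 11 tumors. The only neighbours in this order whose mean ± SD ranges did not meet were *Cdkn1c* and *Igf2*, with *Cdkn1c* higher in 11 of 11 tumors. *Igf2* was above *Dlk1* in 11 of 11 tumors as well. The growth factor *Igf2* and the progenitor protein *Dlk1* were thus at the bottom, and the receptor that removes IGF2 was among the 4 highest.

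Members were related to each other in 36 pairs of the 9 tested genes across the 11 tumors, on log2(CPM + 1). Of these pairs, 25 had r above 0, 3 had an unadjusted permutation p under 0.05, and 0 had an adjusted p under 0.05. The pair with the smallest p was *Meg3* and *Grb10* (Pearson r = 0.690, permutation p = 0.0193, adjusted p = 0.450; Spearman rho = 0.573, permutation p = 0.0699, adjusted p = 0.629), with r = 0.405 after leaving out the 2 tumors farthest from the *Meg3* median. *Peg3* and *Mest* had r = 0.626 (permutation p = 0.0363, adjusted p = 0.450) and Spearman rho = 0.700 (permutation p = 0.0203, adjusted p = 0.629), with r = 0.515 without the 2 tumors farthest from the *Peg3* median. *Grb10* and *Plagl1* had r = 0.628 (permutation p = 0.0375, adjusted p = 0.450) and Spearman rho = 0.436 (permutation p = 0.182, adjusted p = 0.729), with r = 0.369 without wild-type replicates 2 and 5.

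**Figure D3:**
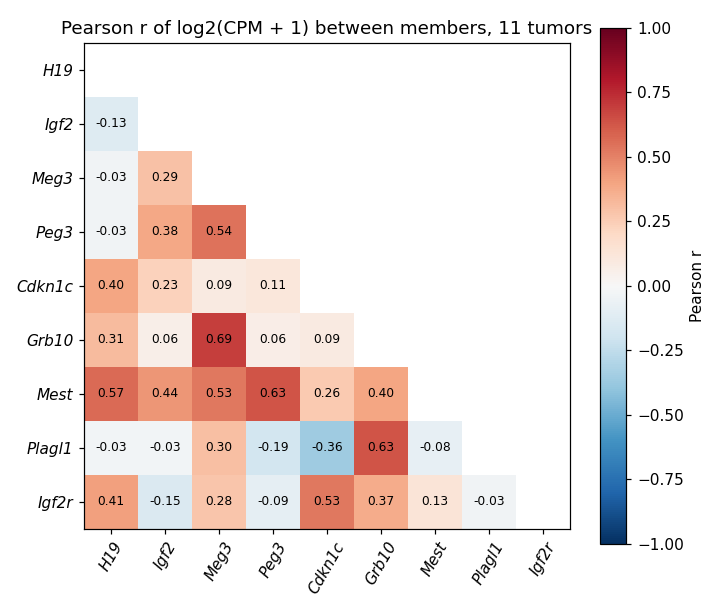
Pearson r of log2(CPM + 1) over 11 tumors for each of the 36 pairs of the 9 tested members, with red for positive and blue for negative r. The largest r is 0.69 for *Meg3* and *Grb10*, and that of *H19* and *Igf2* is -0.13.

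The genes most like each member across the 11 tumors were found by Pearson r among 18695 genes with a mean of at least 1 CPM, without a test. *H19* was most like *Brd1* (r = 0.911) and *Tle1* (r = 0.908), and *Igf2* was most like AC162689.1 (r = 0.863) and *Rgs14* (r = 0.813). *Igf2r* was most like *Fblim1* (r = 0.936) and *Spsb4* (r = 0.923), and *Grb10* was most like *Nlrp9b* (r = 0.944) and RP24-81A5.2 (r = 0.940). *Rian* was among the nearest 2 genes of *Meg3*, behind RP24-496C22.6 (r = 0.918), which was the only case of a nearest gene from the domain pairs above. *Peg3* was most like *Plk2* (r = 0.947) and *Ahi1* (r = 0.944), and *Cdkn1c* was most like *Ccdc102a* (r = 0.878) and *Trappc4* (r = 0.873). *Mest* was most like *Tmem165* (r = 0.917) and AC102248.2 (r = 0.914), and *Plagl1* was most like *Sema6a* (r = 0.966) and RP23-145F9.2 (r = 0.960).

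Imprinted genes outside the members were taken from lists by parental origin, and whether the listed genes were imprinted in these tumors was not tested. Of 16 tested paternally expressed genes, 1 was lower and 0 were higher at an adjusted p under 0.05 (edgeR), 8 had an unadjusted p under 0.05, 11 had a log2 fold change below 0, and the median was -0.21. Over all 19232 genes tested, 2.27% passed the adjusted threshold and 3601 the unadjusted one, with a median of -0.00012. The lower gene was *Nnat*, which encodes a membrane protein of the endoplasmic reticulum. It had between 5.46 CPM and 8.37 CPM in knockout tumors and 11.1, 9.77, 10.9, 11.2 and 10.7 CPM in wild-type replicates 1 to 5. The groups did not overlap, as for 3.29% of all genes tested, and the fitted log2 fold change was -0.64 (adjusted p = 0.0189 from edgeR), lower in 6 of 6 tumors. Of 16 tested maternally expressed genes, 0 passed an adjusted p under 0.05 (edgeR; 4 had an unadjusted p under 0.05), with a median of 0.027. The most abundant of them was *Cd81*, with a mean of 272 CPM. A list of genes linked to imprints or DNA methylation, such as the maintenance methyltransferase *Dnmt1*, had 13 tested genes. Of these, 0 passed either an adjusted or an unadjusted p under 0.05 (edgeR), with a median log2 fold change of 0.089. *Tet3* was the most abundant of them, with a mean of 278 CPM.

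Markers of other cells of the tumor were read beside the members. Of 9 fibroblast, 7 endothelial, 6 pericyte, 7 adipocyte, 8 macrophage, 3 T cell, 3 skeletal muscle and 4 Schwann cell markers tested, 0 passed an adjusted p under 0.05 (edgeR), and 1, a macrophage marker, had an unadjusted p under 0.05. Some lists ran mostly in 1 direction. The log2 fold change was above 0 for 8 of 8 macrophage markers (median 0.24) and 8 of 9 fibroblast markers (median 0.32), and below 0 for 7 of 7 endothelial (median -0.24) and 7 of 7 adipocyte markers (median -0.80). Macrophage markers summed to 436 ± 100.2 CPM (SD, n = 6) in knockout and 302 ± 99.9 CPM (SD, n = 5) in wild-type tumors. Most of this difference came from *Lyz2*, the most abundant of them, with means of 193.5 CPM and 94.4 CPM. Summed levels also differed between tumors of the same genotype. Adipocyte markers had 141 CPM in wild-type replicate 3 and at most 62.0 CPM elsewhere. Skeletal muscle markers had 255 CPM in wild-type replicate 5, 187 CPM in knockout replicate 4 and 136 CPM in knockout replicate 1, most of it from *Ttn*. Their part in the member values was not tested.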

How the data were processed

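Bulk RNA of mammary tumors was enriched for poly(A) and sequenced as paired-end reads from stranded libraries. The submitters' processing notes name FastQC, Bowtie2, Partek and GRCm38; the annotation version, the counting method and its use of strand are not given in the sources used here. The deposited estimated counts are not normalized, and between 18.1% and 19.8% of values in a tumor are not whole. The deposited CPM values sum to about 1000000 per tumor and are close to those counts divided by their total, without matching exactly. The lowest row total was 10. The labels give a single batch value, a date, without saying what it dates, so no comparison within batches was made.

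For testing, the estimated counts were rounded, and genotypes were compared with edgeR 4.0.16 in R 4.3.3 (TMM factors, default filter on low counts, quasi-likelihood test, genotype as the only term, Benjamini-Hochberg adjustment). Intervals are 95%. Alternatives used DESeq2 1.42.0 and limma 3.58.1. Ratios used log2(CPM + 1) and exact permutation tests, and correlations used 100000 permutations (numpy 2.4.6). Transcript lengths came from GENCODE, which is on another build, and no coordinates were taken from it. Deposited stop positions were taken as lying 1 base past the gene end.

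The members and lists were chosen with earlier results of these data known. Named genes were the members and *Pcbp1*, the genes of each list past an adjusted p of 0.05 with its most abundant gene, and the 2 genes most like each member. The most abundant gene of a list is the one with the highest mean CPM, which does not correct for length. Genes that overlap a member were named too. The basal markers were named for their values in wild-type replicate 2, and *Dnmt1* and *M6pr* as examples of their lists. Domain neighbours were chosen after the data were seen.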

Additional observations from a re-analysis of the deposited data

Results flagged for a closer look

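Of 22 groups of values, 11 genes in each genotype, 6 held a tumor far from the rest of its group, meaning that its gap to the nearest tumor, as a share of the range of the group, was above Dixon's critical value. For normally distributed values chance gives about 1 in 20 groups, but the groups share the same tumors and are not independent, so that the 2 cannot be compared directly. *H19* was high in wild-type replicate 1 (91.8 against 14.8 CPM in the next tumor). Wild-type replicate 2 was apart for *Peg3* (166 against 56.5 CPM in the next tumor), for *Dlk1* (1.14 against 0.183 CPM in the next tumor) and for *Igf2r*, where it was low (70.7 against 97.7 CPM in the next tumor). *Plagl1* was high in knockout replicate 2 (78.0 against 31.5 CPM in the next tumor), and *Igf2r* in knockout replicate 1 (185 against 117 CPM in the next tumor). The causes of these values were not tested.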

How the results depend on the processing

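Of 174 member values over 20 alternative settings, 165 kept the direction of the reported value, 9 turned, and 0 passed an adjusted p of 0.05. *Igf2* turned with limma-voom and sample quality weights (-0.50) and with limma on log2(CPM + 1) (-0.079) or log2(CPM + 0.1) (-0.34), and with 1 tumor left out it ranged from -0.097 to 0.25 over 9 fits, since without knockout replicate 3 or 6 it was not tested. *Plagl1* turned with limma-voom (-0.25), and ranged from -0.23 to 0.32 with each tumor left out. In the same fits, *Peg3* ranged from -0.63 to 0.26, *H19* from 0.15 to 1.63 and *Cdkn1c* from 0.11 to 0.43. Over the alternatives that did not only leave out a tumor, *Cdkn1c* ranged from 0.18 to 0.31, *Igf2r* from 0.20 to 0.33, *Peg3* from -0.37 to -0.075 and *Plagl1* from -0.25 to 0.14. With limma-voom and sample quality weights, *H19* was 1.39 (adjusted p = 0.145 from limma) and *Mest* 1.34 (adjusted p = 0.120 from limma), where the adjusted p over all alternatives other than leaving out a tumor lay between 0.145 and 0.820 for *H19* and between 0.120 and 0.622 for *Mest*. Pairs of members past an adjusted p of 0.05 numbered 0 under the 3 alternatives for correlations. With 1 tumor left out, the difference in the ratio of *Meg3* to *Dlk1* ranged from 0.32 to 0.63 (exact permutation, unadjusted p from 0.0317, without knockout replicate 5, to 0.281). The causes were not tested. Without the filter on low counts, *Dlk1* differed by -0.30 on the log2 scale (adjusted p = 0.900 from edgeR).

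Over all genes, DESeq2 called 730 lower and 486 higher and limma-voom 1190 lower and 968 higher, against 319 and 117 with edgeR. With each tumor left out the counts ranged from 144 to 389 lower and from 41 to 187 higher. *Pcbp1* ranged from -3.60 to -3.34 over the alternatives.

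With the replicate number as a replicate block in tumors 1 to 5 of each genotype, 118 genes were lower and 42 higher, and in the same tumors without the block, which is the fit without knockout replicate 6, 212 and 69. The numbers were not found to pair the tumors: correlations of same-numbered deviations ran from -0.144 to 0.293, and not every tumor correlated best with its own number. Under the replicate block, *H19* differed by 1.26 on the log2 scale (adjusted p = 0.276 from edgeR) and 0 members were called, with unadjusted p-values under 0.05 for 2 (*H19* and *Grb10*). *Igf2* and *Dlk1* could not be tested there.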
